A study of Homo sapiens with 688 samples.

Results

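BT20 breast carcinoma cells were exposed to idarubicin HCl for 6 h and profiled genome-wide, and the data are described here from the 12 PLATE-Seq wells that the labels assign to idarubicin, out of 96 wells on the BT20 plate and 688 samples in the series. The reference was the 12 DMSO (vehicle) wells of the same plate. Idarubicin was used at 0.084 µM, a dose set by the study from cell viability in a separate exposure, and drug-treated and DMSO wells were frozen in serum with DMSO before lysis, so that every well had contact with DMSO at that step. PLATE-Seq captures polyadenylated RNA on an oligo(dT) plate, barcodes the cDNA of each well and counts reads from the 3′ ends of transcripts. The rest of each well's material went, pooled over 6 wells, into conventional TruSeq libraries, giving 2 idarubicin pools and 2 DMSO pools out of 16. The 2 assays therefore measured the same wells, and the TruSeq values are a second assay rather than a second set of cultures. Wells treated for 6 h with mitoxantrone (0.18 µM, 12 wells) or gemcitabine (0.194 µM, 12 wells) on the same plate were used to compare drugs. Wells treated for 6 h with a further drug of the plate, aprepitant (2 µM, 12 wells), replaced the DMSO wells as controls in some fits. The study describes the effects of aprepitant on these cells as minimal.

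Idarubicin is an anthracycline. Drugs of this class intercalate into DNA and trap topoisomerase II on it, which leaves DNA breaks. Cells with such breaks activate checkpoint kinases that hold them before mitosis. The genes for mitotic proteins are transcribed in a wave in G2 and M phase, through promoters bound by the MuvB complex together with B-MYB and FOXM1, and the genes for DNA replication in an earlier wave driven by E2F factors. BT20 is an established basal-type breast cancer line known for amplified EGFR. The study took it from a cell bank that tests identity, and states that the name is on a register of misidentified lines.

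The idarubicin wells held between 874136 and 1213811 counted reads (median 1081287) and the DMSO wells between 367848 and 1071312 (median 924315). One DMSO well, replicate 5, was the shallowest. Levels are given as TMM-scaled CPM, that is, read counts relative to the library total after its adjustment with trimmed means of M values. Idarubicin replicates 1, 5 and 9 stood apart: the transcript symbol TVAS5 took 13.9% to 16.8% of their reads, against 6.21% to 7.76% in the other 9 idarubicin wells and 5.93% to 10.1% in the DMSO wells. Results that rested on these wells are given with and without them. Spike-in RNA was added to a subset of wells, and the odd-numbered replicates of both groups held 24323 to 74039 spike-in reads against 566 to 14143 in the even-numbered replicates. Each condition occupied a fixed position in every run of 8 wells, so position and drug cannot be told apart. The epithelial markers that define the line were high in both groups: KRT5 had medians of 2049 CPM with idarubicin and 1984 CPM with DMSO, and KRT18 of 1277 CPM and 1350 CPM. EPCAM, an epithelial adhesion protein, had medians of 248 and 269 CPM. Of 9 epithelial markers, KRT17 and KRT19 were too low to be tested. Of the 7 tested, EGFR was called lower with idarubicin, against 1.93% of all tested genes, and 6 had a negative log2 fold change. Of 14 markers of other cell types, 1 (COL1A1) passed the count filter and was not called. Their summed level was 9.49 to 50.9 CPM in idarubicin wells and 18.9 to 47.2 CPM in DMSO wells, and KLK2, KLK3, PGR, CD3E and ALB were at 0 in all 24 wells.

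A set of 4 marker genes was examined first, PLK1 and PSRC1, which fell, and BTG3 and CASP2, which rose. PLK1 encodes the polo-like kinase that drives mitotic entry and exit. PSRC1 encodes a microtubule-binding protein of the spindle. BTG3 encodes an antiproliferative protein of the BTG/TOB family, and CASP2 an initiator caspase linked to DNA damage. Their promoters are shown because all 4 moved within 6 h. Each run is 300 bases from RefSeq (GRCh38.p14), with 250 bases before and 50 from the annotated transcript start, printed 5′ to 3′ on the gene's own strand. CASP2 has 2 annotated starts. Capitals mark exact matches, on either strand and whether or not they overlapped, to the cell cycle homology region (CHR, searched as TTTGAA or TTCGAA), the CCAAT box, an E2F site (TTTCGCGC, TTTGGCGC or TTTCCCGC) or TATAAA.
PLK1, chr16:23678639-23678938, plus strand: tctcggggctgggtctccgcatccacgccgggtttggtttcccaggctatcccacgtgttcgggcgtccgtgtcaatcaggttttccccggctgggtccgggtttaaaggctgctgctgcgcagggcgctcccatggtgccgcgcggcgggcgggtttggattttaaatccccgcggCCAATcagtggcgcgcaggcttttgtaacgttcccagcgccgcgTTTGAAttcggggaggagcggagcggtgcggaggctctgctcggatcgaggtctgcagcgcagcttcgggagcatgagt
PSRC1, chr1:109283096-109283395, minus strand: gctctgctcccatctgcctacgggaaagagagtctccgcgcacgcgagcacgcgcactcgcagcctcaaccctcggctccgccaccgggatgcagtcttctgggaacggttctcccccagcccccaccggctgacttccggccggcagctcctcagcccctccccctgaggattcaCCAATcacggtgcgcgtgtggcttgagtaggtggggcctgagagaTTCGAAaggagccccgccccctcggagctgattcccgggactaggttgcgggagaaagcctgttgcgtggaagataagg
BTG3, chr21:17612852-17613151, minus strand: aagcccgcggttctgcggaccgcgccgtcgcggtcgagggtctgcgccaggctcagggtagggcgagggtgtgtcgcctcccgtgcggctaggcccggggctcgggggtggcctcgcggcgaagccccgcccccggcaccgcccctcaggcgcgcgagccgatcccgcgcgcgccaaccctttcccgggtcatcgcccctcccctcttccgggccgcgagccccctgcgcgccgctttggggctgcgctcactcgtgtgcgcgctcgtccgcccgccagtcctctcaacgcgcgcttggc
CASP2, chr7:143288101-143288400, plus strand: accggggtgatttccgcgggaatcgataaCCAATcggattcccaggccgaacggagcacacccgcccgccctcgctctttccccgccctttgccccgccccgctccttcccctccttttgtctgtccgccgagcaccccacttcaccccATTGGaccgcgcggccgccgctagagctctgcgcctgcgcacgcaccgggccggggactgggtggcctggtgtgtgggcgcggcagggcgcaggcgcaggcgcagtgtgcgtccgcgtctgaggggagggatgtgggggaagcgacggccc
CASP2, chr7:143289338-143289637, plus strand: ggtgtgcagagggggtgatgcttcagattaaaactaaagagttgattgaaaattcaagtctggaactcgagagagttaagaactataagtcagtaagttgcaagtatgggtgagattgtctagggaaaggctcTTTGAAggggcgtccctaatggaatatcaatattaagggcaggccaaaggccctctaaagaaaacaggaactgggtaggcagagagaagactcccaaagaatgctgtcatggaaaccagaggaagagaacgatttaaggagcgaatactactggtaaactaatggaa
PLK1 and PSRC1 shared a layout, with a CCAAT box beginning 73 and 74 bases before the start, respectively, and a CHR beginning 29 bases before it in both. BTG3 held none of the searched motifs in this window. The first CASP2 promoter held CCAAT on both strands, and the second held a CHR beginning 117 bases before the start. A match describes the letters only.

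In PLATE-Seq, 183 of 6586 tested genes differed between idarubicin and DMSO at an adjusted p below 0.05 (edgeR quasi-likelihood test, Benjamini-Hochberg), or 2.78%. Of these, 56 were higher with idarubicin (0.85% of tested genes) and 127 were lower (1.93%). The falls were larger than the rises, with 45 genes lowered and 13 raised at least 2-fold, and medians of -0.80 and 0.69 on the log2 scale. The median log2 fold change of all tested genes was 0.00. With scaling by library totals alone the split was 30 higher and 168 lower, so the number of rises depended on the scaling, while the median of all genes moved to -0.07. Without idarubicin replicates 1, 5 and 9 the counts were 37 higher and 98 lower, and 129 of the 183 genes were called again in the same direction. All 183 kept their sign, but they had been called on wells that this fit reuses, so the sign is no independent check. The wells are separate wells of one plate, so these p-values measure the spread between wells. Being bulk measurements, they also do not separate fewer cells in a phase from less RNA per cell.

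**Figure D1:**
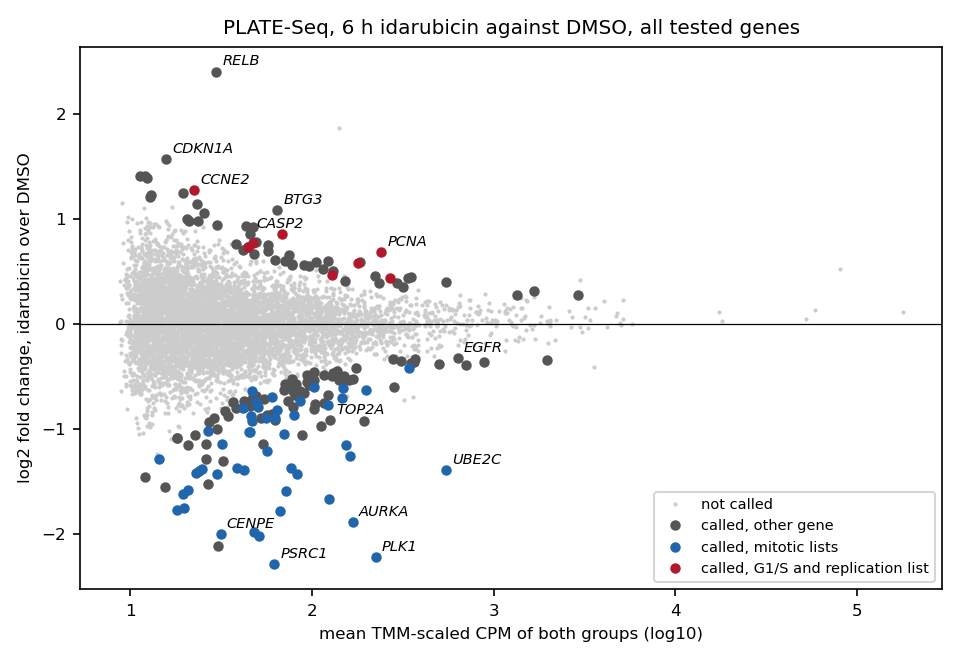
Each point is 1 of the 6586 tested genes, with the mean TMM-scaled CPM of both groups (log10) on the x axis and the PLATE-Seq log2 fold change of idarubicin over DMSO on the y axis. Grey points were not called, blue points are called genes of the 4 mitotic lists, red points called genes of the replication list and dark points other called genes. The 127 lower genes reach further from 0 than the 56 higher genes, apart from RELB at the top.

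PLK1 (chr16:23688977-23701688 on hg19) lay between 40.9 and 119 CPM in the idarubicin wells, with a median of 80.7 CPM. In the DMSO wells it lay between 289 and 440.3 CPM, around a median of 392 CPM. The highest idarubicin well was below the lowest DMSO well. The log2 fold change was -2.22 ± 0.13 (SE, 12 wells per group; edgeR adjusted p = 1.16e-20), a 4.66-fold lower level. PSRC1 (chr1:109822178-109825808) lay between 5.57 and 38.1 CPM (median 21.0 CPM) with idarubicin and between 60.0 and 136 CPM (median 108 CPM) with DMSO. These groups did not overlap either, and the log2 fold change was -2.29 ± 0.19 (edgeR adjusted p = 2.28e-15). BTG3 (chr21:18965971-18985263) rose from 13.2 to 89.8 CPM in DMSO wells (median 36.7 CPM) to 61.2 to 116 CPM in idarubicin wells (median 90.7 CPM). The ranges overlapped, but all 12 idarubicin wells were above the DMSO median. Its log2 fold change was 1.09 ± 0.19 (edgeR adjusted p = 4.53e-05). CASP2 (chr7:142985308-143004789) had idarubicin wells from 34.3 to 96.6 CPM (median 58.3 CPM) and DMSO wells from 15.7 to 49.3 CPM (median 31.7 CPM). Again the ranges overlapped with every idarubicin well above the DMSO median, and the log2 fold change was 0.85 ± 0.20 (edgeR adjusted p = 0.00585).

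**Figure D2:**
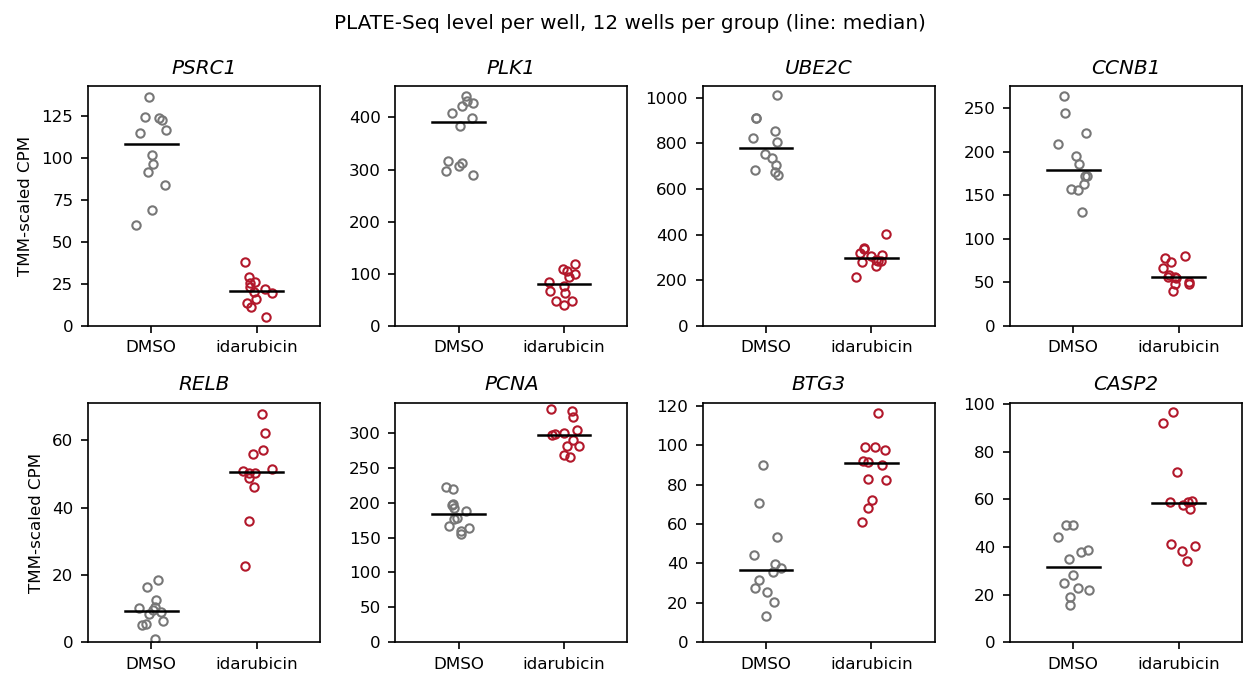
TMM-scaled CPM (y axis, from 0) of 8 genes in each of the 12 DMSO wells (grey) and 12 idarubicin wells (red), with the group median as a line. The top row shows genes that fell without overlap between groups. In the bottom row RELB and PCNA rose without overlap, and the ranges of BTG3 and CASP2 overlapped.

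Mitotic genes made up a large share of the falls. Over 4 lists of mitotic genes (106 genes, 87 of them tested), 49 fell, against 1.93% of all tested genes. By edgeR 0 of them rose, while DESeq2 called 2 higher and 4 were higher at an unadjusted edgeR p below 0.05. Their median log2 fold change was -0.74. In 14 genes (0.213% of those tested) every idarubicin well was below every DMSO well: PLK1, PSRC1, AURKA, BUB1B, CCNB1, CCNB2, CDC20, CENPE, CENPF, CKAP2, FAM83D, KIF2C, TNFAIP8L1 and UBE2C. TNFAIP8L1, a gene of the TNFAIP8 family, is the one of these that is on no mitotic list. CKAP2, KIF2C and TNFAIP8L1 were named after their values were seen.

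Among mitotic cyclins, kinases and phosphatases, 11 of 18 tested genes fell and the list median was -0.76. The summed level of the list was 1045 to 1214 CPM in idarubicin wells and 2057 to 2464 CPM in DMSO wells, without overlap. AURKA, the Aurora A kinase of the spindle poles, had idarubicin wells from 43.0 to 92.3 CPM (median 73.5 CPM) and DMSO wells from 179 to 397 CPM (median 263 CPM). Its log2 fold change was -1.89 ± 0.13 (edgeR adjusted p = 3.25e-20). CCNB1 encodes cyclin B1, the partner of CDK1 at mitotic entry. It lay between 40.2 and 80.3 CPM with idarubicin and between 130 and 264 CPM with DMSO, a log2 fold change of -1.67 ± 0.13 (edgeR adjusted p = 1.62e-16). CCNB2, which encodes cyclin B2, fell by 1.43 on the log2 scale. NEK2, a centrosome kinase, fell by 1.59, and its ranges overlapped (10.5 to 61.4 CPM and 58.9 to 157 CPM). BUB1, a spindle checkpoint kinase chosen here after its values were seen, fell by 1.75. BUB1B encodes the checkpoint protein BUBR1 and fell by 1.26, from a DMSO median of 226 CPM to 101 CPM. CCNA2, the cyclin A2 gene, and CDK1 moved less, with log2 fold changes of -0.77 ± 0.12 (edgeR adjusted p = 7.73e-06) and -0.42 ± 0.09 (edgeR adjusted p = 0.0024).

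Spindle and kinesin motor genes gave the most uniform group: all 27 tested members had a negative log2 fold change and 22 of them fell, with a list median of -1.05. The summed level was 776 to 1031 CPM with idarubicin and 1608 to 2053 CPM with DMSO. KIF20A encodes a kinesin of the central spindle. Its idarubicin wells lay between 4.75 and 40.1 CPM (median 16.3 CPM) and its DMSO wells between 34.0 and 113 CPM (median 78.8 CPM), and it fell by 2.02 ± 0.23 (SE) on the log2 scale (edgeR adjusted p = 7.08e-10). CENPE, a kinetochore motor that carries chromosomes to the spindle equator, was at 0.81 to 19.4 CPM with idarubicin and at 22.9 to 84.4 CPM with DMSO, with no overlap. It was 4.01-fold lower (SE 0.26 on the log2 scale, edgeR adjusted p = 2.12e-08). FAM83D, which helps to align chromosomes on the spindle, fell by 1.78, and ASPM, a spindle pole protein, fell by 1.39. HMMR, a spindle assembly factor named after its values were seen, fell by 1.77.

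In PLATE-Seq the list of kinetochore, centromere and passenger complex genes was divided. Of 27 tested genes 6 fell, 21 were not called, and the list median was -0.08, with log2 fold changes from -1.38 to 0.70. CENPF, a large kinetochore protein whose level peaks in G2 and M phase, had medians of 98.6 CPM with idarubicin and 212 CPM with DMSO, did not overlap between groups, and fell by 1.15 ± 0.13 (SE; edgeR adjusted p = 2.06e-10). CENPA, the centromeric histone variant, fell by 1.03. SGOL2, which protects cohesin at centromeres, fell by 1.38, and NDC80, which attaches kinetochores to microtubules, fell by 0.82. CENPK, a subunit of the constitutive centromere network, was not called: its medians were 25.9 CPM with idarubicin and 15.9 CPM with DMSO, and the log2 fold change was 0.47 ± 0.28 (edgeR adjusted p = 0.532).

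Anaphase, cytokinesis and condensin genes fell in 10 of 15 tested cases (list median -0.74). UBE2C is the ubiquitin-conjugating enzyme of the anaphase-promoting complex. It lay between 213 and 402 CPM with idarubicin (median 298 CPM) and between 660.2 and 1011 CPM with DMSO (median 780 CPM), a log2 fold change of -1.39 ± 0.09 (edgeR adjusted p = 1.16e-20). CDC20, the activator of that complex, had idarubicin wells at 8.25 to 41.3 CPM and DMSO wells at 50.9 to 126 CPM, and fell by 1.98 ± 0.21 (SE; edgeR adjusted p = 3.26e-11). CDCA3, a mitotic entry factor, fell by 1.38, and PTTG1, which encodes securin, fell by 0.63.

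**Figure D3:**
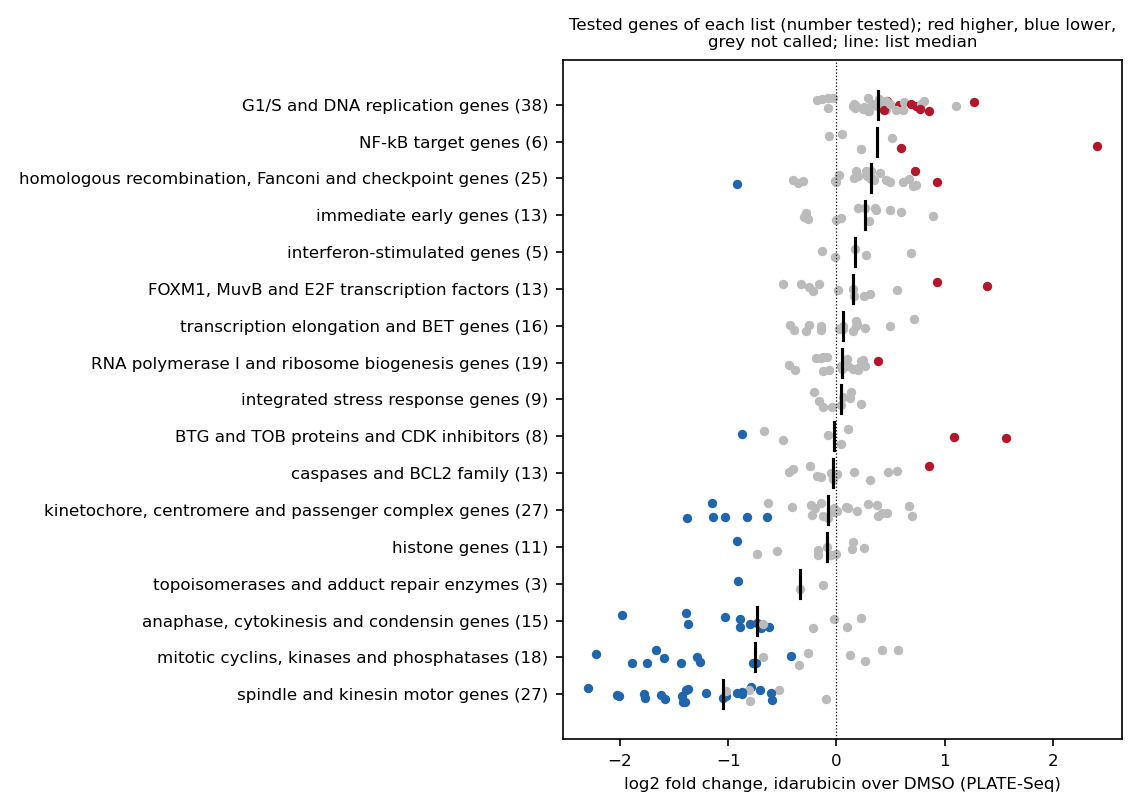
PLATE-Seq log2 fold change of idarubicin over DMSO (x axis) for the tested genes of 17 gene lists (rows, number tested in brackets), ordered by the list median (black line). Blue points fell, red points rose and grey points were not called. The mitotic lists other than the kinetochore list sit at the bottom, and the replication list (median 0.39) is at the top.

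TOP2A encodes the alpha isoform of topoisomerase II, the enzyme on which idarubicin acts. It was at 62.4 to 109 CPM with idarubicin (median 85.1 CPM) and at 96.8 to 227 CPM with DMSO (median 161 CPM). All idarubicin wells were below the DMSO median, the ranges overlapped, and the log2 fold change was -0.91 ± 0.13 (edgeR adjusted p = 1.89e-07). TOP2B, the isoform expressed throughout the cycle, and TOP1 were not called, with log2 fold changes of -0.33 ± 0.22 (edgeR adjusted p = 0.587) and -0.13 ± 0.13 (edgeR adjusted p = 0.776). With aprepitant wells in place of the DMSO wells, the value of TOP1 was 0.10. These 3 were the members tested in PLATE-Seq among 8 topoisomerase and adduct repair genes. In TruSeq 5 of the 8 were lower and 2 higher (2 and 1 with the lane as a term), against 18.4% and 18.9% of all genes. TOP2A, TOP2B and TOP1 were lower there by 1.39, 0.23 and 0.16 (edgeR adjusted p = 1.18e-22, 0.000116 and 0.00993). With the lane as a term TOP2A was still called (-1.29). TOP2B and TOP1 then were not (-0.12 and -0.07, edgeR adjusted p = 0.3755 and 0.69).

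Of 13 tested FOXM1, MuvB and E2F factors, 2 rose, against 0.85% of all tested genes, and no other was called. FOXM1 itself was not called, with medians of 47.2 CPM for idarubicin and 39.4 CPM for DMSO, and a log2 fold change of 0.15 ± 0.22 (edgeR adjusted p = 0.85). E2F1, an activator of S-phase genes, had idarubicin wells from 22.7 to 94.3 CPM (median 67.2 CPM) and DMSO wells from 15.7 to 59.0 CPM (median 29.4 CPM). It rose by 0.93 ± 0.22 (SE; edgeR adjusted p = 0.00713) and 10 of 12 wells were above the DMSO median. E2F2, a related activator, was at 4.26 to 32.3 CPM with idarubicin and 2.54 to 17.5 CPM with DMSO, a rise of 1.39 ± 0.36 (SE; edgeR adjusted p = 0.0151). Without idarubicin replicates 1, 5 and 9, neither was called (edgeR adjusted p = 0.0636 for E2F1 and 0.0612 for E2F2, with log2 fold changes of 0.82 and 1.35). E2F2 was not called in 1 fit of all 96 wells either (edgeR adjusted p = 0.103).

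Genes of the G1/S transition and DNA replication moved opposite to the mitotic genes. Of 38 tested, 8 rose against a background of 0.85%, and none fell by edgeR, by DESeq2 or at an unadjusted p below 0.05. In all, 33 had a positive log2 fold change, and the list median was 0.39. Their summed level was 2927 to 3499 CPM in idarubicin wells and 2131 to 2475 CPM in DMSO wells, again without overlap. PCNA, the sliding clamp of the replication fork (chr20:5095599-5107272), lay between 266 and 334 CPM with idarubicin (median 297 CPM) and between 155 and 223 CPM with DMSO (median 183 CPM). It is 1 of 2 genes (0.0304% of those tested) in which every idarubicin well was above every DMSO well, and its log2 fold change was 0.69 ± 0.09 (edgeR adjusted p = 1.52e-07). CCNE2, which encodes cyclin E2, had medians of 31.9 CPM with idarubicin and 12.1 CPM with DMSO, a rise of 1.28 ± 0.28 (SE; edgeR adjusted p = 0.00242). CLSPN, the claspin adaptor of the ATR checkpoint, rose by 0.86 ± 0.17 (SE; edgeR adjusted p = 0.00044). CDC6 and ORC6, which license replication origins, rose by 0.73 and 0.58. FEN1, the flap endonuclease of lagging-strand synthesis, rose by 0.77, and RRM2 and RFC3 by 0.44 and 0.47. MCM5, a subunit of the replicative helicase, was at a log2 fold change of 0.46 with an edgeR adjusted p of 0.0587. CDC6 and RFC3 lost their calls without replicates 1, 5 and 9 (edgeR adjusted p = 0.0699 and 0.159), and FEN1 and RFC3 with scaling by library totals alone (edgeR adjusted p = 0.0547 and 0.112).

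The largest rise was that of RELB (chr19:45504719-45541450), an NF-κB family subunit that is itself an NF-κB target. Its idarubicin wells lay between 22.6 and 67.9 CPM (median 50.7 CPM) and its DMSO wells between 0.987 and 18.4 CPM (median 9.35 CPM), without overlap. The log2 fold change was 2.41 ± 0.26 (edgeR adjusted p = 8.46e-11), a 5.3-fold higher level. NFKBIA, which encodes the NF-κB inhibitor IκBα, rose by 0.60 ± 0.14 (SE; edgeR adjusted p = 0.00327), from a median of 93.0 CPM to 153 CPM. These 2 were called higher among 6 tested NF-κB target genes of 22 listed, against 0.85% of all tested genes. TAP1 and PSMB9, neighbouring genes of antigen processing that overlap in the annotation, were picked after their values were seen. They rose by 0.99 and 0.98. TAP1 was not called in 1 fit of all 96 wells (edgeR adjusted p = 0.219). PSMB9 was not called without replicates 1, 5 and 9, with library totals alone or with aprepitant wells as controls (edgeR adjusted p = 0.211, 0.0657 and 0.317). None of 5 tested interferon-stimulated genes was called, by edgeR, by DESeq2 or at an unadjusted p below 0.05. None of 13 tested immediate early genes was called by edgeR, and 3 were higher at an unadjusted p below 0.05. The immediate early genes nearest to the threshold were KLF10 (log2 fold change 0.89, edgeR adjusted p = 0.0842) and JUND (0.49, edgeR adjusted p = 0.0903), and DESeq2 called both with adjusted p-values of 0.0495 and 0.0455. JUND was also called by edgeR with aprepitant wells as controls (0.72, adjusted p = 0.00366) and with counts thinned to the lowest total (0.69, adjusted p = 0.0233). In TruSeq, 14 of 26 immediate early genes were higher and 5 lower (4 and 1 with the lane as a term), against 18.9% and 18.4% of all genes.

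CDKN1A encodes p21, a CDK inhibitor. It had idarubicin wells from 1.85 to 34.0 CPM (median 25.1 CPM) and DMSO wells from 1.13 to 18.9 CPM (median 6.97 CPM), and 11 of 12 idarubicin wells were above the DMSO median. It rose by 1.57 ± 0.36 (SE; edgeR adjusted p = 0.00399). MDM2, which encodes a ubiquitin ligase, had medians of 15.4 CPM with idarubicin and 26.0 CPM with DMSO and a log2 fold change of -0.28 ± 0.31 (edgeR adjusted p = 0.799). CCNG1, POLH and GADD45A were likewise not called (log2 fold changes of -0.40, -0.25 and -0.34). Among 8 tested BTG/TOB genes and CDK inhibitors, BTG3 and CDKN1A rose and CDKN2C, which encodes p18, fell by 0.87 ± 0.20 (SE; edgeR adjusted p = 0.00297). CASP2 was the 1 called gene of 13 tested caspase and BCL2 family genes. Over all tested genes 0.85% rose and 1.93% fell. A single call in a list of this size is not read as a result about the list.

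Repair genes gave few calls in PLATE-Seq, in both directions. The list counts in this paragraph stand against 0.85% of all tested genes higher and 1.93% lower. Of 25 tested homologous recombination, Fanconi and checkpoint genes, EXO1, a resection exonuclease, and FANCD2, a Fanconi anaemia protein, rose by 0.93 ± 0.22 (SE; edgeR adjusted p = 0.00547) and 0.73 ± 0.20 (SE; edgeR adjusted p = 0.0243). The call of FANCD2 did not hold without replicates 1, 5 and 9, with aprepitant wells as controls or with library totals alone (edgeR adjusted p = 0.349, 0.58 and 0.0588). EXO1 was not called with aprepitant wells as controls (0.72, edgeR adjusted p = 0.0505). BRCA1 was not called (log2 fold change 0.74, edgeR adjusted p = 0.204). H2AFX, which encodes the histone variant phosphorylated at DNA breaks, fell by 0.92 ± 0.14 (SE; edgeR adjusted p = 1.34e-05), from a median of 242 CPM to 139 CPM, and was also the 1 called gene of 11 tested histone genes. USP1, the deubiquitinase of FANCD2, rose by 0.58 and PHLDA2 by 0.70, both not called without replicates 1, 5 and 9 (edgeR adjusted p = 0.0592 and 0.0567). TCOF1, a nucleolar factor of ribosomal RNA transcription, rose by 0.59 ± 0.14 (SE; edgeR adjusted p = 0.00507). Of 19 tested RNA polymerase I and ribosome biogenesis genes, NOP56 alone was called (0.39, edgeR adjusted p = 0.0215), and its call did not hold with scaling by library totals alone (edgeR adjusted p = 0.126). Of 9 integrated stress response and 16 transcription elongation genes none was called by edgeR, by DESeq2 or at an unadjusted p below 0.05.

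Other genes that fell belong to no mitotic list. They number 78 of the 127. EGFR, the receptor amplified in this line and 1 of the 9 epithelial markers above, went from 538 to 936 CPM in DMSO wells (median 712 CPM) to 473 to 696 CPM in idarubicin wells (median 538 CPM), a log2 fold change of -0.33 ± 0.09 (edgeR adjusted p = 0.0144). HES1, a Notch target, fell by 0.97 ± 0.14 (SE; edgeR adjusted p = 1.09e-06) and ID1, a BMP target, fell by 1.14 ± 0.27 (SE; edgeR adjusted p = 0.00468). CCNG2, which encodes an atypical cyclin, fell by 1.55. EGFR, HES1, ID1 and CCNG2 were chosen after their values were seen. EGFR was not called without replicates 1, 5 and 9 (edgeR adjusted p = 0.121), nor with aprepitant wells as controls (edgeR adjusted p = 0.318). With those controls ID1 was not called either (-0.81, edgeR adjusted p = 0.0835). In TruSeq HES1 was lower by 0.30 (edgeR adjusted p = 0.000345). With the lane as a term it was not called (-0.28, edgeR adjusted p = 0.113). EGFR, ID1 and CCNG2 were lower in TruSeq by 0.43, 0.67 and 1.21, and were still called with the lane as a term.

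The TruSeq pools were far deeper, with 28530465 and 29068232 reads for idarubicin and 25356838 and 26719454 for DMSO. In the fit over all 16 pools, 2836 of 14970 tested genes were higher with idarubicin (18.9%) and 2761 were lower (18.4%). Of these, 136 were higher and 129 lower by at least 2-fold. Both idarubicin pools carry lane 1 in the labels and both DMSO pools lane 2. With lane as a term in the fit, 574 genes were higher and 799 lower. The lane term rests on the aprepitant pools that bridge the lanes, with only 1 pool in each lane. Whether calls lost with this term reflect the lane or a less precise estimate was not tested. All 183 genes called in PLATE-Seq were tested here. Of the 127 lower genes, 113 were lower in TruSeq, and of the 56 higher genes, 45 were higher. With the lane term these counts were 104 and 30. Among the 183, 0 were called in the opposite direction by edgeR. Medians over these genes were -0.64 in TruSeq against -0.80 in PLATE-Seq for the falls, and 0.33 against 0.69 for the rises.

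PLK1 read 29.4 and 29.6 CPM in the idarubicin pools and 156 and 169 CPM in the DMSO pools (log2 fold change -2.46, edgeR adjusted p = 1.98e-26). RELB read 51.1 and 54.6 CPM against 12.4 and 13.5 CPM (2.03, edgeR adjusted p = 7.55e-20). BTG3 read 32.1 and 32.6 CPM against 17.8 and 18.4 CPM (0.83, edgeR adjusted p = 7.3e-11). CASP2 read 107 and 106 CPM against 83.3 and 86.9 CPM (0.33, edgeR adjusted p = 3.42e-06), and with the lane term its value was 0.25 (edgeR adjusted p = 0.061). In each of these 4 genes both idarubicin pools lay on one side of both DMSO pools. With 2 pools per group, drawn from the same wells as PLATE-Seq, this order gives no independent support. Some PLATE-Seq calls had no counterpart in TruSeq. THAP5 was at 22.4 and 24.1 CPM with idarubicin and 26.9 and 24.1 CPM with DMSO, although it was called higher by 1.41 in PLATE-Seq. TRMT10C and MRPS33, called higher by 0.76 and 0.61, had TruSeq log2 fold changes of -0.08 (edgeR adjusted p = 0.278) and -0.01 (edgeR adjusted p = 0.966). LRRC8B, YRDC and PEX5, called lower by 1.46, 1.09 and 1.09 in PLATE-Seq, were at -0.03, -0.03 and 0.01. None of these 3 was called in PLATE-Seq without replicates 1, 5 and 9 (edgeR adjusted p = 0.0806, 0.14 and 0.153). THAP5, LRRC8B, YRDC and PEX5 were chosen after their values were seen. PLATE-Seq reads only 3′ ends and TruSeq whole transcripts, and whether that moves with these differences was not tested.

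**Figure D4:**
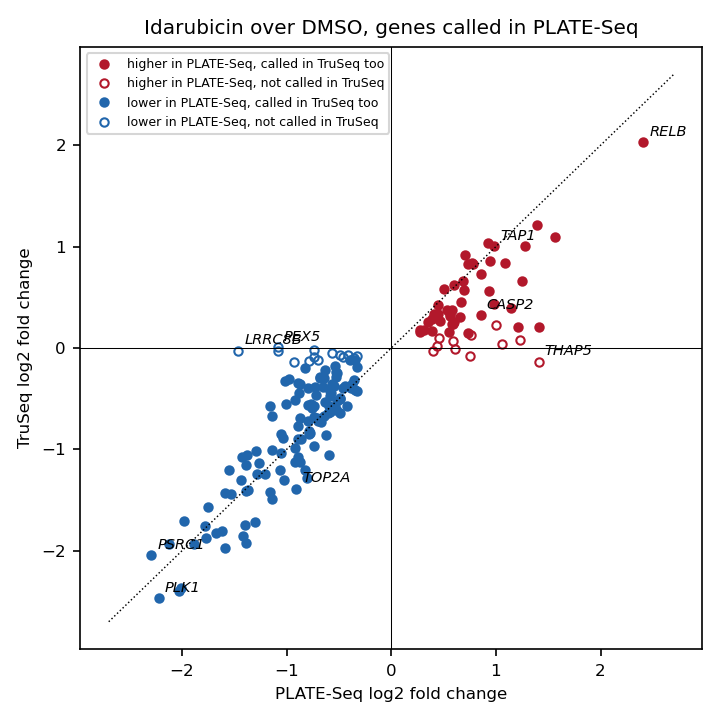
Log2 fold change of idarubicin over DMSO in PLATE-Seq (x axis) and TruSeq (y axis) for the 183 genes called in PLATE-Seq. Filled points were called in the same direction in TruSeq (45 higher, 113 lower), open points were not called there, and the dotted line marks equal values. The open points lie near 0 on the TruSeq axis.

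The deeper assay tested more members of each group, and its list counts stand against 18.9% of all genes higher and 18.4% lower (574 and 799 genes with the lane term). Of 47 G1/S and replication genes, 42 were higher and 1 lower in TruSeq (39 and 1 with the lane term), with a list median of 0.46 against 0.00 for all genes. All 31 spindle and kinesin genes were lower (30 with the lane term), with a median of -1.11. Of 34 kinetochore, centromere and passenger complex genes, 20 were lower and 3 higher (14 and 1 with the lane term). Their median was -0.26. Of 31 homologous recombination, Fanconi and checkpoint genes, 13 were higher and 6 lower (12 and 2 with the lane term). BRCA1 was higher by 0.37, and by 0.39 with the lane term (edgeR adjusted p = 2.93e-06 and 0.00924). Of 17 tested NF-κB targets, 15 were higher and 0 lower (10 and 0 with the lane term), with a median of 0.95. TNFAIP3, which encodes the NF-κB feedback inhibitor A20, read 7.94 and 9.17 CPM with idarubicin and 2.97 and 2.46 CPM with DMSO (1.65, edgeR adjusted p = 9.72e-11). IL8, a chemokine gene, had a log2 fold change of 1.62 (edgeR adjusted p = 0.000885), with an adjusted p of 0.13 in the edgeR fit with the lane term. CDKN1A was higher by 1.09 and GADD45A by 0.69, while MDM2 was lower by 0.40, with 73.7 and 72.1 CPM in the idarubicin pools and 101 and 91.5 CPM in the DMSO pools. With the lane term GADD45A and MDM2 were not called (0.45 and -0.24, edgeR adjusted p = 0.0531 and 0.107). GADD45A differed in sign from its uncalled PLATE-Seq value. CCNG1 and POLH were lower by 0.53 and 0.27, and were still called with the lane term (-0.47 and -0.29, edgeR adjusted p = 0.00219 and 0.0454). Of 20 FOXM1, MuvB and E2F factors, 8 were higher and 6 lower (6 and 1 with the lane term). FOXM1 was lower by 0.21 (edgeR adjusted p = 4.95e-05). E2F1 and E2F2 were higher by 1.04 and 1.21 (edgeR adjusted p = 3.04e-17 and 1.09e-17). With the lane term they were at 0.89 and 1.06 (edgeR adjusted p = 1.96e-09 and 2.91e-09). The idarubicin pools include replicates 1, 5 and 9. The genes outside the PLATE-Seq test with the largest falls were CCNB3, a meiotic B-type cyclin, at -3.32, the DNA helicase gene PIF1 at -3.11, ZSCAN12P1 at -2.37, the spindle gene DLGAP5 at -1.93 and GAS2L3 at -1.79. PIF1 read 7.87 and 7.25 CPM with idarubicin and 65.6 and 64.6 CPM with DMSO. The largest rises were ANKRD33B at 1.78, TNFAIP3, IL8, SLC9A3 at 1.44 and JPH1 at 1.27. Some of these levels were low. ANKRD33B read 10.0 and 11.1 CPM with idarubicin and 3.53 and 2.58 CPM with DMSO. SLC9A3 read 7.08 and 5.43 CPM against 2.19 and 2.43 CPM, and was at 0 in every PLATE-Seq well of both groups.

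Promoter letters were counted over RefSeq windows of the same 300 bases. A CHR was found in 68.6% of 51 promoters of the mitotic genes that fell, in 59.5% of 37 promoters of the mitotic genes tested but not called lower, in 18.8% of 101 promoters of the other genes that fell, and in 9.09% of 55 promoters of the genes that rose. The share was 11.7% over 7911 promoters of all tested genes and 16.4% over all 35116 promoters. The CHR shares of the called and uncalled mitotic genes were close. An E2F match was found in 18.2% of promoters of genes that rose, 5.92% of promoters of genes that fell and 4.88% of those of all tested genes. CHR and CCAAT stood together in 58.8% of promoters of mitotic genes that fell, in 35.1% of those of mitotic genes tested but not called lower and in 5.07% of those of tested genes. Genes can have several promoters, and 104 of 127 lower genes and 41 of 56 higher genes were matched. The following windows show the CHR nearest to the start, in capitals, for 6 mitotic genes that fell.
CDC20, chr1:43358904-43358933, plus strand: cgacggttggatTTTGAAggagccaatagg
CCNB2, chr15:59105105-59105134, plus strand: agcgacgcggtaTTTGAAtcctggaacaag
BUB1B, chr15:40161034-40161063, plus strand: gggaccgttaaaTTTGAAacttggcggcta
CENPA, chr2:26786026-26786055, plus strand: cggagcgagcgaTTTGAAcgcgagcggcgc
HMMR, chr5:163460598-163460627, plus strand: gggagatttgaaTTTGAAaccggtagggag
BUB1, chr2:110678045-110678074, minus strand: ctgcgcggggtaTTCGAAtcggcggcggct
The next windows show the E2F match nearest to the start, in capitals and on either strand, for 6 genes that rose.
E2F1, chr20:33686387-33686416, minus strand: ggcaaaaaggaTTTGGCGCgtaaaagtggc
E2F2, chr1:23531257-23531286, minus strand: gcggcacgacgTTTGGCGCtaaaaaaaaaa
CDC6, chr17:40287875-40287904, plus strand: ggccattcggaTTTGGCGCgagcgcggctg
CLSPN, chr1:35769965-35769994, minus strand: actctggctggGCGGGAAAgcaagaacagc
FANCD2, chr3:10026424-10026453, plus strand: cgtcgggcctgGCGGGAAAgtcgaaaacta
RFC3, chr13:33818083-33818112, plus strand: atttggagctcGCGGGAAAacttgtctctg

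Compared with mitoxantrone, another topoisomerase II poison but an anthracenedione rather than an anthracycline, idarubicin differed in 5 of 6590 tested genes, 1 higher (0.0152%) and 4 lower (0.0607%). The doses differed, at 0.084 µM and 0.18 µM, so drug and dose cannot be told apart. DESeq2 called 9 genes, and 405 genes had an unadjusted edgeR p below 0.05. Levels in the comparisons of drugs come from a joint scaling of the 4 groups and differ slightly from those above. PLK1 was lower with idarubicin (40.7 to 119 CPM, median 80.1 CPM) than with mitoxantrone (86.6 to 201 CPM, median 144 CPM), a difference of -0.90 ± 0.14 on the log2 scale (SE; edgeR adjusted p = 0.000271). UBE2C differed by -0.47 (edgeR adjusted p = 0.0106) and BUB1B by -0.59 (edgeR adjusted p = 0.0359). RELB was higher with idarubicin, with medians of 50.5 and 23.3 CPM, by 1.05 ± 0.21 (SE; edgeR adjusted p = 0.0145). In 1 fit of all 96 wells this call was lost, with 0 genes called higher and 7 lower. ID3, a DNA-binding inhibitor, was lower with idarubicin by 1.07 ± 0.22 (SE; edgeR adjusted p = 0.0174), with medians of 28.6 and 47.2 CPM. Against DMSO, ID3 was not called (log2 fold change -0.44, edgeR adjusted p = 0.468). PSRC1, BTG3 and CASP2 were not called between the drugs, and their mitoxantrone medians of 36.1, 69.3 and 43.8 CPM differed from DMSO in the same direction as those of idarubicin. Their differences were -0.75 (95% interval -1.21 to -0.28), 0.28 (0.00 to 0.57) and 0.27 (-0.08 to 0.62), by the normal approximation. TOP2A differed by -0.28 (-0.53 to -0.02) with an edgeR adjusted p of 0.765, and AURKA by -0.39 (-0.70 to -0.09) with an edgeR adjusted p of 0.64.

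Gemcitabine, a nucleoside analogue that blocks DNA synthesis, gave a wider contrast at 0.194 µM. Here too drug and dose cannot be told apart, and the study describes the effects of gemcitabine on these cells as minimal. Medians with gemcitabine and DMSO were 439 and 389 CPM for PLK1, 104 and 108 CPM for PSRC1, and 169 and 181 CPM for PCNA. Idarubicin wells were higher in 43 of 6592 genes (0.652%) and lower in 92 (1.4%). PLK1 had a median of 439 CPM with gemcitabine and 80.1 CPM with idarubicin, a difference of -2.43 ± 0.13 (SE; edgeR adjusted p = 1.25e-20). AURKA differed by -1.82, UBE2C by -1.27 and PSRC1 by -2.25. RELB, PCNA and NFKBIA were higher with idarubicin by 1.85, 0.76 and 0.71. BTG3 was higher by 0.84 (edgeR adjusted p = 0.000128) and CASP2 by 0.69 (edgeR adjusted p = 0.0345). FOXM1 and CENPK were not called, at 0.07 (95% interval -0.34 to 0.49) and 0.50 (-0.03 to 1.04). The comparisons with DMSO, mitoxantrone and gemcitabine share the idarubicin wells, so their values are placed side by side and their overlap is not used.

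**Figure D5:**
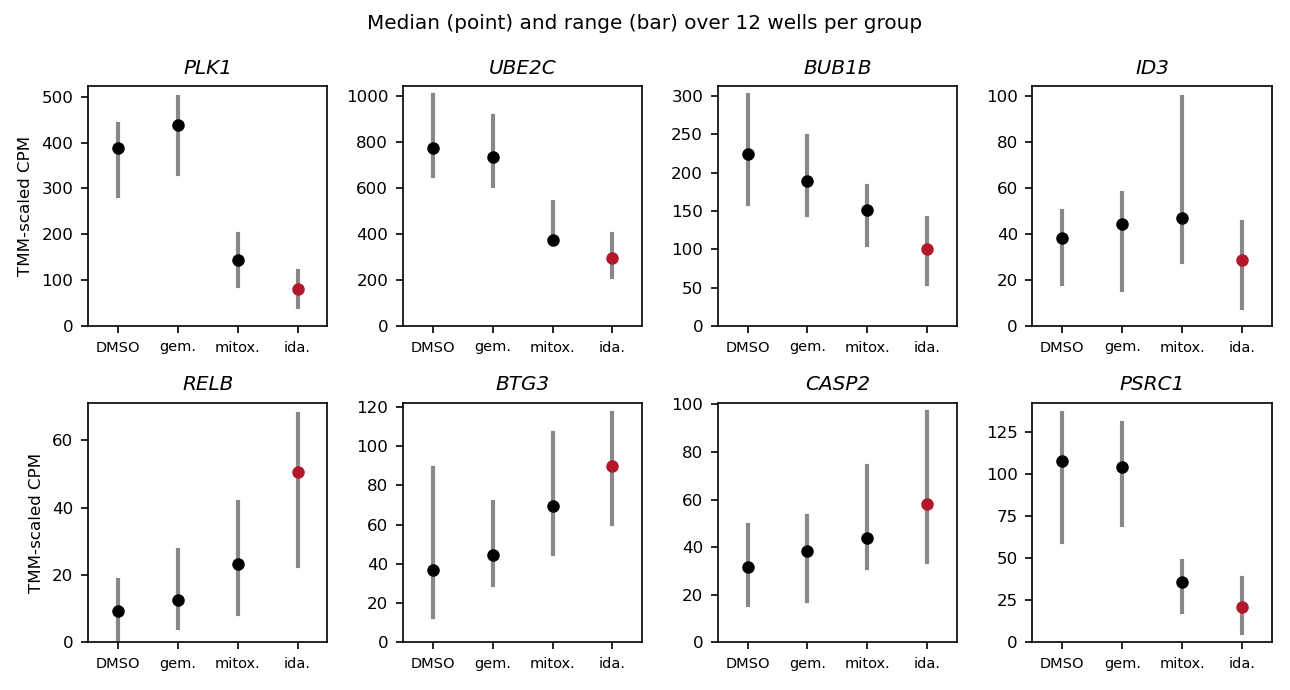
Median (point) and range over 12 wells (bar) of the TMM-scaled CPM of 8 genes with DMSO, gemcitabine (0.194 µM), mitoxantrone (0.18 µM) and idarubicin (0.084 µM, red), with the y axis from 0. For PLK1, the idarubicin median of 80.1 CPM is below the mitoxantrone median of 144 CPM and both are below DMSO and gemcitabine.

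Fold changes also varied with gene length, taken as the span from start to end in the annotation. In PLATE-Seq the median log2 fold change went from 0.04 in 1124 genes under 10 kb to -0.09 in 1013 genes over 100 kb, and 1.6% and 0.197% of these genes rose, while 2.14% and 2.17% fell. In TruSeq the medians were 0.12 in 2498 genes under 10 kb and -0.16 in 2409 genes over 100 kb, with the classes between (10 to 25, 25 to 50 and 50 to 100 kb) in order at 0.07, 0.00 and -0.06. In the longest class 5.98% of genes were higher and 40.1% lower, and in the shortest 30.7% were higher and 6.57% lower. With the lane term the medians of the shortest and longest classes were 0.05 and -0.11. These are medians over genes, which are not independent, and carry no test.

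In U87 glioblastoma cells of the same series, idarubicin was used at 0.024 µM for 24 h on 2 plates, each with 1 idarubicin well and 2 DMSO wells. Dose, time and cell line all differ from BT20, so values are only given side by side, as CPM of unadjusted library totals between 417770 and 588082. CDKN1A was at 644 CPM against 263 and 363 CPM on one plate and at 994 CPM against 464 and 611 CPM on the other, so both idarubicin wells were above all 4 DMSO wells. BTG3 was at 235 CPM against 283 and 266 CPM and at 405 CPM against 512 and 463 CPM, below both DMSO wells of its plate each time. The remaining genes did not keep 1 order on both plates. PSRC1 was at 71.8 CPM against 148 and 179 CPM on the first plate and at 66.2 CPM against 61.2 and 85.2 CPM on the second. PLK1 was at 12.0 CPM against 4.49 and 18.6 CPM and at 10.0 CPM against 28.9 and 20.9 CPM, with 5 reads in each idarubicin well. CASP2 was at 23.9 CPM against 18.0 and 18.6 CPM and at 18.1 CPM against 34.0 and 29.6 CPM. MDM2 was at 31.1 CPM against 38.2 and 10.3 CPM and at 114 CPM against 45.9 and 43.5 CPM.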

How the data were processed

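PLATE-Seq and TruSeq tables of BT20 cells and PLATE-Seq tables of U87 cells were used, with groups taken from the deposited labels. The authors deposited raw counts of uniquely mapped reads per gene symbol (BWA, hg19, UCSC known genes for PLATE-Seq); details of the TruSeq counting are not given in the sources used here. No molecular identifiers were used, and replicate wells differed beyond sampling noise. The 92 spike-ins and 1 row naming no gene (0% of counts) were removed, leaving 28429 symbols. A group of 6 symbols, TVAS5 among them, held 41.1% of plate reads. edgeR 4.0.16 in R 4.3.3 (TMM, filterByExpr, robust quasi-likelihood fit, Benjamini-Hochberg adjusted p under 0.05) was run on the 24 wells of each comparison and on all 16 TruSeq pools, and was tested on simulated data. Alternatives included DESeq2 1.42.0, other scalings, no filter, thinned counts and other controls. Gene spans are from GENCODE on GRCh37, which located 91.7% of tested genes, and promoters from RefSeq GRCh38.p14, whose coordinates are not those of hg19.

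Named genes are the 12 largest rises and 12 largest falls among called genes whose higher mean reached 50 CPM and whose 12 idarubicin wells fell on a single side of the DMSO median, the 4 markers, 6 genes of the study's text, up to 4 genes of smallest p per list, 3 per direction for the other drugs and 5 per direction for TruSeq alone (at least 5 CPM). BUB1, CDK1, CKAP2, CCNG2, EGFR, HES1, HMMR, ID1, KIF2C, LRRC8B, MCM5, MDM2, PEX5, PSMB9, RFC3, RRM2, TAP1, THAP5, TNFAIP8L1 and YRDC were added after their values were seen. Members and lists were chosen with earlier results of these data known, so list counts are descriptions and give no independent support. The results of 1 further list are not reported here.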

Additional observations from a re-analysis of the deposited data

How the results depend on the processing

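For idarubicin against DMSO in PLATE-Seq (183 genes, 56 higher and 127 lower), no filter on low counts gave 402 (173 and 229), and library totals alone gave 30 higher. Chosen after seeing the data, leaving out idarubicin replicates 1, 5 and 9 gave 37 higher, even-numbered replicates only gave 53 (7 and 46) and odd-numbered replicates only 45 (10 and 35), with every called gene tested there on the same side of 0; these fits hold fewer wells. With aprepitant wells as controls 13 of the named genes lost their call, and FOXM1 (-0.03), GADD45A (0.05) and TOP1 (0.10) changed sign without being called; GADD45A was at 0.13 in even-numbered replicates. With the replicate block of 8 wells 179 genes were called for DMSO, 4 for mitoxantrone and 135 for gemcitabine. Wells of one run correlated by 0.00819 on average and 0 of 12 runs passed 0.1. Genes with mean counts as low as 10 in single wells entered this check, so it cannot decide whether runs share an effect. Spike-in reads did differ between odd- and even-numbered runs. DESeq2 called 9 genes against mitoxantrone. Against gemcitabine, no filter gave 297 (107 and 190), and 28 were higher both in 1 fit of 96 wells and without idarubicin replicates 1, 5 and 9. In TruSeq the lane term gave 1373 (574 and 799), and leaving out 1 pool at a time, where the lone pool is taken to vary like the others, gave 3593 to 4859 (1770 to 2467 higher, 1823 to 2392 lower). Genes called in both assays fell from 158 to 92 at an adjusted p under 0.01. The cause of these shifts was not tested. The depth of PLATE-Seq left 2501 genes called in TruSeq untested.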
